A study of Homo sapiens with 6 samples.

Results

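The glutathione peroxidases GPX1 to GPX8 were described in A549 cells, a human lung adenocarcinoma line, by RNA sequencing. The 8 genes were chosen by symbol, and all 8 were among the 58676 genes of the deposited table. GPX2 was singled out because its level was higher in the recoverin cells in these same libraries, so that its difference between the groups is given as a description, without a test. The groups were A549 Rec (3 libraries), which carry a human recoverin cDNA, and A549 MOCK (3 libraries), which carry the empty plasmid. Per the study's methods the vector was retroviral and both groups were selected with puromycin. Both groups were grown for 6 days in the same medium, which per the labels held methylcellulose. Both derive from 1 parental line, and neither the labels nor the methods state that the 3 libraries of a group came from separate cultures, so that the p-values below measure only the spread between these libraries, which may be technical.

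Glutathione peroxidases reduce hydrogen peroxide and organic hydroperoxides to water and alcohols, mostly with glutathione as the electron donor. In the selenoenzymes of the family the reaction takes place at a selenocysteine, which is encoded by a TGA codon that is otherwise a stop, while in the others a cysteine stands at this place. GPX1 is the widespread cytosolic enzyme, GPX2 is the epithelial enzyme best known from the gut lining, GPX3 is secreted, GPX4 reduces lipid hydroperoxides inside membranes and holds back ferroptosis, GPX5 and GPX6 are known from the epididymis and the olfactory epithelium, and GPX7 and GPX8 reside in the endoplasmic reticulum.

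The stretch around the catalytic codon is shown for all 8 members because it separates the selenoenzymes from the cysteine enzymes and shows how close each is to GPX2. The coding strand is printed 5′ to 3′ from the canonical GENCODE v44 transcripts on GRCh38, with the catalytic codon in capitals:
GPX1: gtggcgtccctcTGAggcaccacggtc
GPX2: gtggcttcgctcTGAggcacaaccacc
GPX3: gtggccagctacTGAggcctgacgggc
GPX4: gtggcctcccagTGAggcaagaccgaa
GPX5: gtggccacctacTGTggtctgacagcg
GPX6: gtggccgcctatTGAggcttggcagct
GPX7: gtggccagcgagTGCggcttcacagac
GPX8: gtggccagtgacTGCcaactcacagac

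The TGA codon stood in GPX1, GPX2, GPX3, GPX4 and GPX6, and a cysteine codon stood in GPX5, GPX7 and GPX8. Within these 27 bases GPX1 was the closest to GPX2, with 21 equal bases, followed by GPX4 with 18 and GPX3 with 15, while GPX8 had 11. In GPX2 the codon was number 40 of 190 and lay at chr14:64942607-64942609 on the minus strand, and in GPX1 it was number 49 of 203 and lay at chr3:49358132-49358134 on the minus strand. The likeness did not extend to whole reads. No stretch of 30 bases in the GPX2 transcripts occurred in the transcripts of another family gene, whereas 348 of the 1739 stretches of GPX1 did, mostly in its pseudogene GPX1P1.

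GPX2 (ENSG00000176153) lies at chr14:64939152-64942905 on the minus strand of GRCh38. CHURC1 and the readthrough gene CHURC1-FNTB run across it on the opposite strand and share 0 exon bases with it. The interval of GPX2 is that of the deposited table. The RefSeq start lies within it, at 64942745, so that 160 of the 250 bases before the RefSeq start are inside the interval. These 250 bases are given from RefSeq (GRCh38.p14, chr14:64942746-64942995, minus strand), with capitals marking the match to TGACNNNGC on either strand, a core of the antioxidant response element to which NRF2 binds together with small MAF proteins:
GPX2: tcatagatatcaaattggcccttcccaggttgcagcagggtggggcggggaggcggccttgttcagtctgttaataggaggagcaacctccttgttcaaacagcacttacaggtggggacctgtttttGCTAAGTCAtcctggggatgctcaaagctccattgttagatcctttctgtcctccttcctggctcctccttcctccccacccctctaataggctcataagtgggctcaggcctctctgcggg

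The match stood on the reverse strand, 122 to 114 bases before the RefSeq start and thus inside the interval of the deposited table. It is a description of letters only, since 4687 of 35116 promoter windows of 300 bases, each reaching 50 bases past the start, held such a match on either strand (13.3%). In windows of this length, GPX2 had this 1 match and the other 7 members had none.

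The libraries held 15183490 to 18572167 reads, as recovered from the deposited TPM (reads per unit of gene length, with the same total of 1000000 in each library). Recoverin (RCVRN), the transduced gene, was at 0 TPM in all 3 A549 MOCK libraries and at 322, 338 and 339 TPM in A549 Rec. The epithelial keratins KRT8 (1925 to 2832 TPM) and KRT18 (2158 to 3361 TPM) were high in all libraries, whereas KRT19 and EPCAM did not exceed 0.325 and 2.98 TPM. The alveolar type II markers NKX2-1, SFTPA1, SFTPB and SFTPC were at or near 0 while NAPSA was at 2.07 to 4.38 TPM and ABCA3 at 15.7 to 27.3 TPM, and the leukocyte markers PTPRC and CD3E, the fibroblast markers COL1A2 and DCN and the summed endothelial markers (0.483 to 0.912 TPM) were near 0 as well. The summed leukocyte markers, mostly CD79A and ITGAM, were at 7.32 to 12.2 TPM in A549 MOCK and 10.7 to 14.5 TPM in A549 Rec, and those of fibroblasts at 2.43 to 5.27 and 2.95 to 5.48 TPM, and their part in the results below was not tested. The mitochondrially encoded genes took 34.5% of the TPM in A549 MOCK replicate 3 and 26.9% in A549 Rec replicate 3, against 13.3% to 17.3% in the other 4 libraries. As TPM adds up to a fixed sum, the other genes together held a smaller part of it in the replicate 3 libraries, though single genes could read higher. Values rescaled without the mitochondrially encoded genes are therefore given for GPX2 and the lists, and for some results of the other members.

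In A549 cells the family was made up almost wholly of GPX1, GPX2 and GPX4. GPX1 (ENSG00000233276, chr3:49357171-49358600, minus strand) was the most abundant member in 6 of 6 libraries. Its level was 287, 299 and 208 TPM in A549 MOCK and 257, 281 and 245 TPM in A549 Rec, so that it ranked between 383 and 449 among all genes of a library. These values rested on 1667 to 2345 reads each. GPX4 (ENSG00000167468, chr19:1103926-1106791, plus strand) was at 169, 163 and 113 TPM in A549 MOCK and at 161, 181 and 133 TPM in A549 Rec. GPX2 lay between these members in 5 of 6 libraries and below GPX4 in A549 MOCK replicate 3. GPX1 was above GPX4 without overlap in either group, whereas the ranges of GPX2 and GPX4 overlapped in both groups and those of GPX1 and GPX2 overlapped in A549 Rec.

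GPX8 (ENSG00000164294, chr5:55160118-55167071, plus strand), of the endoplasmic reticulum, stood well below the 3 leading members at 32.0, 34.5 and 26.4 TPM in A549 MOCK and 30.4, 31.7 and 34.0 TPM in A549 Rec. The secreted GPX3 (ENSG00000211445, chr5:151020438-151028993, plus strand) was lower again, with 32 to 64 reads per library. It was at 3.51, 4.11 and 2.42 TPM in A549 MOCK and at 2.41, 3.30 and 1.92 TPM in A549 Rec. GPX5 (ENSG00000224586, chr6:28525925-28534952, plus strand) and GPX6 (ENSG00000198704, chr6:28503296-28528215, minus strand) had 0 reads in all 6 libraries. A count of 3 reads, the limit that a count of 0 allows, would have been at most 0.297 TPM for GPX5 and 0.302 TPM for GPX6. GPX7 (ENSG00000116157, chr1:52602372-52609051, plus strand) had 1 read in A549 MOCK replicate 2 (0.120 TPM) and 0 in the other 5 libraries. In those with 0 reads the limit was at most 0.355 TPM. Of the 8 members 5 passed the filter on low values (a TPM of 1 or more in 3 or more libraries), and GPX5, GPX6 and GPX7 did not. Such limits cover counting error only.

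**Figure D1:**
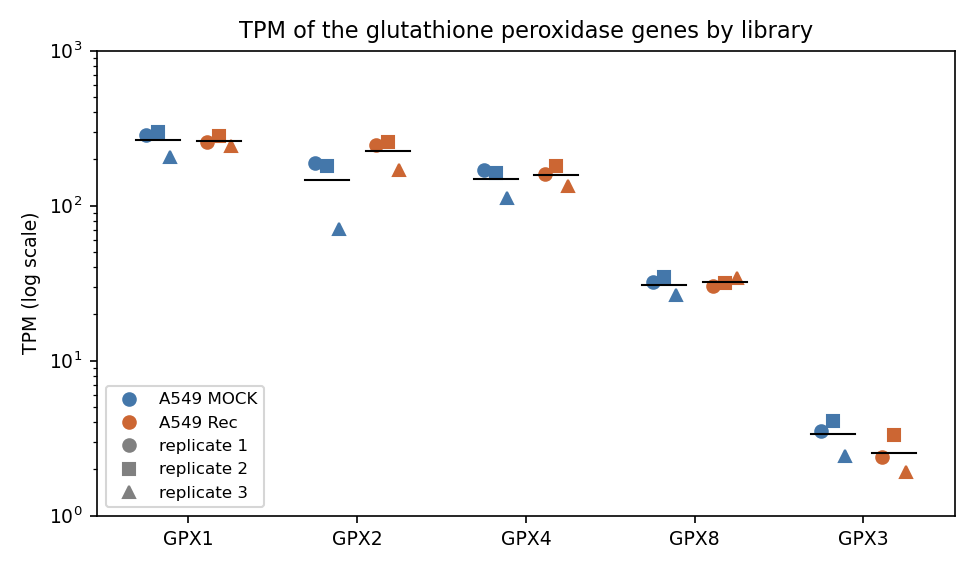
TPM (log axis) of the 5 glutathione peroxidase genes that passed the filter, with 1 symbol per library and a line at the mean of each group; GPX5 and GPX6 had no reads and GPX7 had 1. GPX2 in A549 MOCK replicate 3, at 71.0 TPM, stands below the other values of this gene.

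GPX2 was the member with the largest difference between the groups, which is how it was selected. Its level was 188, 181 and 71.0 TPM in A549 MOCK (146 ± 65.4, SD, n = 3) and 248, 258 and 170 TPM in A549 Rec (225 ± 48.4, SD, n = 3). A549 Rec replicate 3 fell below A549 MOCK replicates 1 and 2, so the groups overlapped on the deposited scale, on which 2.47% of the genes tested were higher in A549 Rec without overlap and 2.69% were lower. In the same-numbered pairs, however, A549 Rec was at 1.32, 1.43 and 2.39 times the A549 MOCK level. In bulk RNA, a larger share of cells with GPX2 and more GPX2 RNA per cell cannot be told apart. For comparison, 2285 of the 17408 genes tested (13.1%) were higher in A549 Rec in all 3 pairs, and 181 (1.04%) had a log2 difference at least as large as the 0.72 of GPX2.

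Of the 6 libraries, A549 MOCK replicate 3 changed the size of this difference most when left out. It held 597 GPX2 reads (95% Poisson interval 550 to 647), against 1417 and 1334 in the other A549 MOCK libraries, and was at 0.385 of their mean TPM. The ratio was 0.503 after rescaling without the mitochondrially encoded genes, where the median of 9708 genes with a mean TPM of at least 10 was 1.04, and 0.628% of these genes were as low. Without this library, and with A549 Rec replicate 3 kept, the log2 difference of GPX2 was 0.27 in place of 0.72. Leaving out any other library gave 0.61 to 0.96. The median over all genes tested also moved, to -0.064 without A549 MOCK replicate 3 from 0.019 with no library left out. In the same-numbered pairs 1, 2 and 3 the log2 difference of GPX2 was 0.40, 0.51 and 1.25. The SD of log2(TPM + 1) among the A549 MOCK libraries was 0.79, where counting error alone gives an SD of 0.05, and 0.935% of 9731 genes with a mean TPM of at least 10 varied as much. In A549 Rec the SD was 0.33, and replicate 3 was again the lowest, at 0.777 of the mean of replicates 1 and 2 on the rescaled values. What set replicate 3 apart was not tested.

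Rescaling without the mitochondrially encoded genes put the 2 groups apart for GPX2. Its rescaled level was 217, 214 and 108 TPM in A549 MOCK and 300, 298 and 232 TPM in A549 Rec. On this scale 2.78% of 17383 genes were higher in A549 Rec without overlap and 3.84% were lower. The pair ratios were then 1.38, 1.39 and 2.14, with pairs 1 and 2 close to each other and pair 3 above them.

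**Figure D2:**
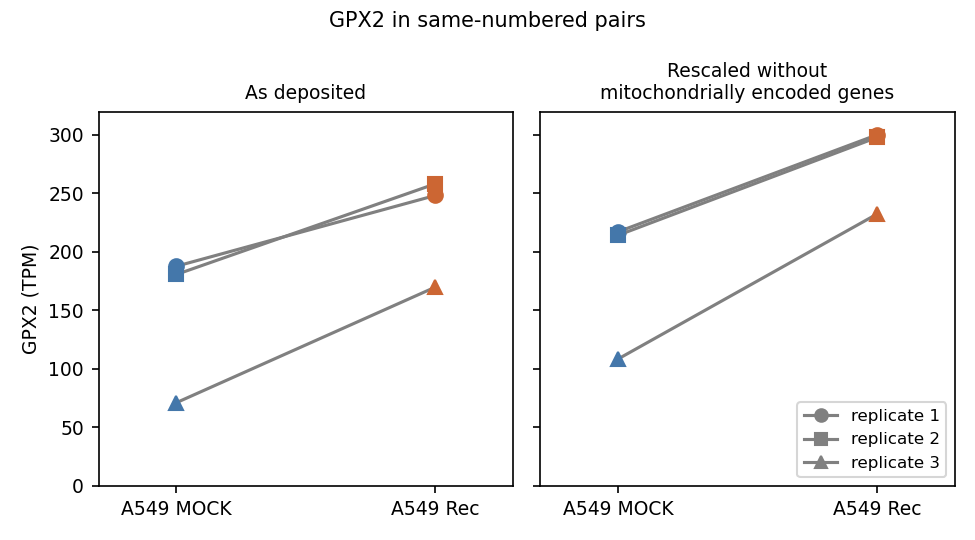
GPX2 in TPM in A549 MOCK and A549 Rec, as deposited and rescaled without the mitochondrially encoded genes, with a line for each same-numbered pair. All 3 lines rise, and replicate 3 lies below the other replicates in both groups.

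The other members were not singled out for their differences, so their differences were tested. All members were, however, chosen with earlier results of these data known. None of these 4 members passed the test (limma on log2(TPM + 1), Benjamini-Hochberg adjusted p = 0.9997 for GPX1, GPX3, GPX4 and GPX8), and the only gene called among all genes tested was RCVRN (1 of 17408, 0.00574%). At an unadjusted p under 0.05 none of the 4 was called either, while 359 of 17408 genes (2.06%) were. With the replicate number as a block, 0 of the 4 and 715 genes (4.11%) had an unadjusted p under 0.05.

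GPX1 averaged 264 ± 49.5 TPM in A549 MOCK and 261 ± 18.3 TPM in A549 Rec (SD, n = 3), and the 95% interval of its log2 difference ran from -0.40 to 0.40. GPX4 averaged 148 ± 31.0 and 158 ± 24.0 TPM, with a log2 difference of 0.10 and an interval from -0.36 to 0.57. GPX8 averaged 31.0 ± 4.11 and 32.0 ± 1.78 TPM, with a log2 difference of 0.054 and an interval from -0.24 to 0.35. The groups overlapped for each of these genes. Without A549 MOCK replicate 3 the log2 differences of GPX4 and GPX8 changed sign to -0.080 and -0.052, and that of GPX1 was -0.17. The median over all genes tested was then -0.064, against 0.019 with no library left out. Differences within these intervals were not excluded by these fits. After rescaling without the mitochondrially encoded genes the standard errors were smaller. The log2 differences were then -0.049 for GPX1 (standard error 0.063, against 0.17 as deposited), 0.060 for GPX4 (0.079 against 0.20) and 0.011 for GPX8 (0.11 against 0.13).

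GPX3 was the member that read lower in A549 Rec in all 3 pairs, at 0.684, 0.804 and 0.793 of the A549 MOCK level, a pattern shared by 9.66% of all genes tested. It averaged 3.35 ± 0.854 TPM in A549 MOCK and 2.54 ± 0.700 TPM in A549 Rec (SD, n = 3), a log2 difference of -0.29 with an interval from -0.82 to 0.23 (limma, unadjusted p = 0.226). The SD of log2(TPM + 1) was 0.30 among the A549 MOCK libraries and 0.28 among the A549 Rec libraries. Counting error alone gives 0.20 and 0.23 on the log2 scale of reads, without an added 1. At such low TPM the added 1 shrinks the SD, so the spread cannot be compared directly with counting error.

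**Figure D3:**
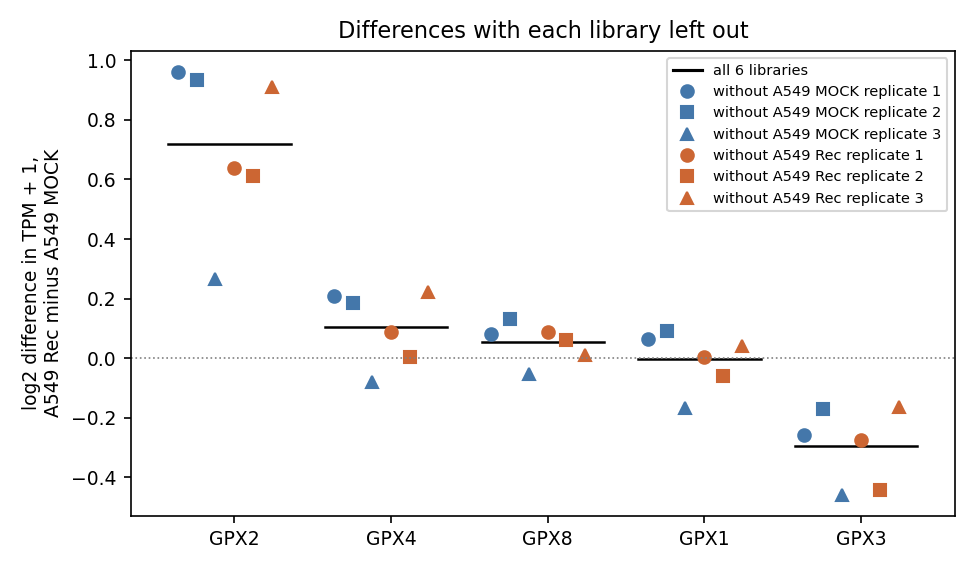
log2 difference in TPM + 1 (A549 Rec minus A549 MOCK) of the 5 members that passed the filter, with all 6 libraries (line) and after leaving out 1 library at a time (symbols). GPX2 is at 0.27 without A549 MOCK replicate 3 and at 0.61 or above otherwise, and GPX4, GPX8 and GPX1 lie on both sides of 0.

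Shares within the family do not depend on the scaling of a library. Together the 8 members held 679, 682 and 420 TPM in A549 MOCK and 699, 755 and 583 TPM in A549 Rec, and 4159 to 7518 reads. The selenoenzymes made up 93.7% to 95.8% of this sum and the cysteine enzymes, which here means GPX8, 4.20% to 6.29%. GPX2 held 27.6%, 26.5% and 16.9% in the A549 MOCK libraries (23.7% ± 5.91, SD, n = 3) and 35.5%, 34.2% and 29.1% in A549 Rec (32.9% ± 3.39, SD, n = 3). All 3 A549 Rec shares were above all 3 A549 MOCK shares, a description that rests on the gene by which the contrast was chosen. The difference of 9.26 percentage points was 5.86 without A549 MOCK replicate 3 and 11.4 when GPX4 was left out of the family. The ratio of GPX2 to GPX1 was 0.655, 0.605 and 0.342 in the A549 MOCK libraries and 0.965, 0.920 and 0.694 in A549 Rec. In A549 Rec replicates 1 and 2 GPX2 was thus nearly level with GPX1.

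**Figure D4:**
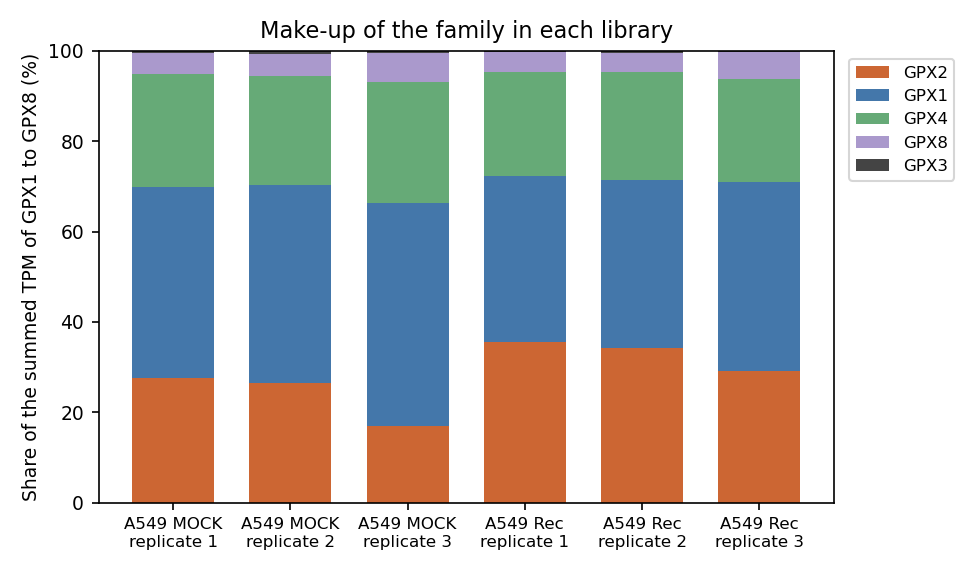
Share (%) of each member in the summed TPM of GPX1 to GPX8 in each library; GPX5 and GPX6 are at 0, and GPX7, with 1 read in 1 library, is too small to see. The share of GPX2 is 16.9% to 27.6% in A549 MOCK and 29.1% to 35.5% in A549 Rec.

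With GPX2 set aside, no test of the rest of the family passed the threshold of 0.05, and none could, since 3 libraries against 3 cannot give an exact p below 0.1. The sum of the other members was 447 ± 84.8 TPM in A549 MOCK and 454 ± 41.5 TPM in A549 Rec (SD, n = 3, exact permutation test, two-sided, p = 0.9). Of this sum GPX1 held 59.2% ± 0.684 and 57.6% ± 1.39 (exact permutation p = 0.2, lower in A549 Rec in 3 of 3 pairs), GPX4 held 33.1% ± 1.13 and 34.8% ± 2.26 (exact permutation p = 0.4), and GPX8 held 6.99% ± 0.537 and 7.11% ± 0.966 (exact permutation p = 0.9). In pair 3 the GPX1 shares were 59.5% in A549 MOCK and 59.1% in A549 Rec, while its TPM was higher in A549 Rec. Of the same sum GPX3 held 0.716%, 0.820% and 0.693% in the A549 MOCK libraries and 0.534%, 0.665% and 0.464% in A549 Rec, without overlap and at the smallest possible p (exact permutation, two-sided, p = 0.1). The nearest shares, of A549 MOCK replicate 3 and A549 Rec replicate 2, rested on 43 and 61 GPX3 reads. In TPM, deposited or rescaled, the groups overlapped for GPX3. How often other genes differ without overlap in such a share was not computed.

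Genes around the family were described from 7 lists with 91 genes, of which 76 passed the filter. None of the 76 was called by limma, adjusted or at an unadjusted p under 0.05, against 2.06% of all genes tested at the latter. None had a log2 difference as large as that of GPX2 on the deposited values, but after rescaling GSTA1 (0.80) and GSTA2 (0.79), both with few reads, were above GPX2 (0.68). Their median log2 difference was 0.041, with a range from -0.21 to 0.69, against 0.019 over all genes tested. After rescaling the medians of the 7 lists ran from -0.075 to 0.021, against -0.022 over all genes, and those of selenocysteine insertion (-0.016) and the regulators (-0.035) changed sign. The medians of each list below are those of the deposited values. The 5 members that passed ran from -0.29 to 0.72.

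The 13 genes that supply and recycle glutathione had a median log2 difference of 0.063. PGD, which makes NADPH in the pentose phosphate pathway, was at 1043 TPM in A549 MOCK and 1113 TPM in A549 Rec on average, and SLC3A2, the partner chain of the cystine transporter, at 306 and 301 TPM. The other peroxide and superoxide enzymes, of which 13 of 15 passed the filter, had a median of 0.062. The peroxiredoxins PRDX5 and PRDX1 averaged 1169 and 1022 TPM in A549 MOCK and 1242 and 1088 TPM in A549 Rec, and thioredoxin (TXN) 1078 and 1050 TPM. Each of these 3 genes was thus several times above GPX1 in TPM. PRDX2, with 1 to 7 reads, and SRXN1, with 10 to 20 reads, were singled out after their values were seen and overlap other genes, so their low values are uncertain.

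Of the 16 glutathione transferases 11 passed, with a median of 0.057. GSTP1, the leading member in TPM, averaged 874 TPM in A549 MOCK and 956 TPM in A549 Rec, GSTO1 124 and 118 TPM, and the membrane-bound MGST1 105 and 109 TPM. GSTA2 had the highest log2 difference of the 76 listed genes that passed the filter, 0.69, and was higher in A549 Rec in 3 of 3 pairs, but on no more than 10 reads in any A549 MOCK library and on 13, 18 and 6 reads in those of A549 Rec. It was the only listed gene with an unadjusted p under 0.05 when the replicate number was a block (limma, Benjamini-Hochberg adjusted p = 0.9981), 1 of 76 against 4.11% of all genes tested. GSTA1, which did not pass the filter, had 0 to 8 reads per library.

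The genes that place selenocysteine at TGA codons (9 of 9 passed) had a median of 0.026. SEPHS2, which makes the selenium donor, averaged 226 TPM in A549 MOCK and 235 TPM in A549 Rec, and the values of SARS1, which charges the selenocysteine tRNA with serine, and of SEPHS1 were 67.4 and 75.6 TPM and 59.2 and 62.7 TPM. The other selenoproteins (13 of 17 passed) had a median of -0.032, with SELENOF, of the endoplasmic reticulum, at 115 and 112 TPM, the methionine sulfoxide reductase MSRB1 at 82.7 and 90.0 TPM and SELENON at 74.4 and 76.4 TPM. None of the genes of either list passed the test.

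Of the 12 genes of lipid peroxide and iron handling 9 passed, with a median of 0.041. The ferritin chains FTL and FTH1 were among the most abundant genes, at 37362 and 12649 TPM in A549 MOCK and 39426 and 13089 TPM in A549 Rec, and ACSL4, which loads membranes with the fatty acids that peroxidize, was at 317 and 300 TPM. Of the 9 regulators 8 passed, with a median of 0.0091. CTNNB1 of the Wnt pathway averaged 70.7 TPM in A549 MOCK and 71.9 TPM in A549 Rec, the small MAF protein MAFK 62.1 and 58.4 TPM, and KEAP1, which holds NRF2 back, 58.7 and 59.0 TPM. These are RNA levels, and no protein or activity was measured.

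**Figure D5:**
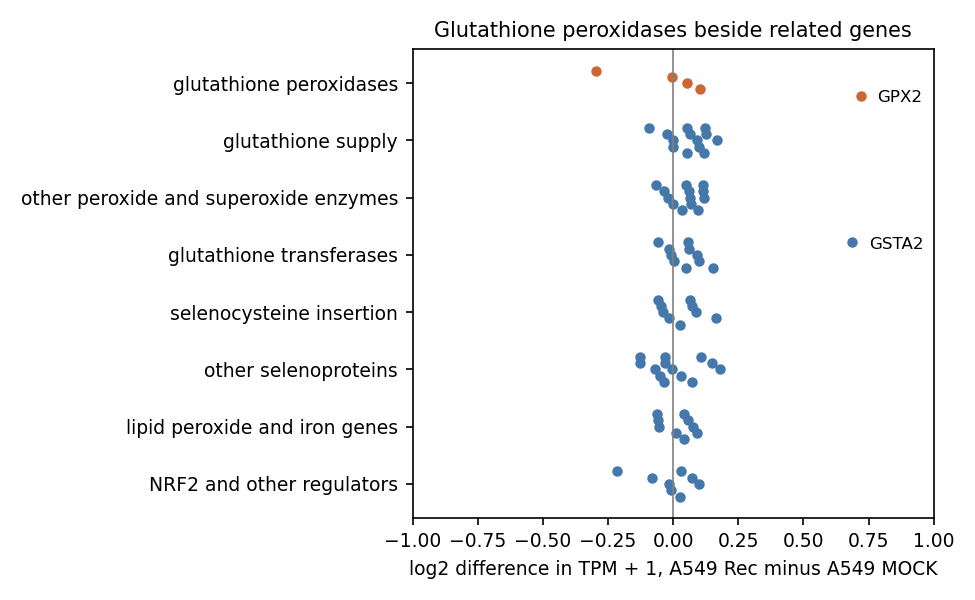
log2 difference in TPM + 1 (A549 Rec minus A549 MOCK) of the 5 glutathione peroxidases and 76 listed genes that passed the filter, 1 point per gene. All points other than GPX2, GPX3, GSTA2 and the regulator MAFF (-0.21, named for its place in the plot) lie between -0.13 and 0.18.

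Low values in A549 MOCK replicate 3 were not limited to GPX2 on the deposited scale. Of the 76 listed genes 55 had their lowest TPM in this library, against 49.1% of all genes tested. After rescaling without the mitochondrially encoded genes it was the lowest for 22 of the 76 (28.9%), against 19.5% of 17383 genes. On the rescaled values its level relative to the mean of A549 MOCK replicates 1 and 2 was 0.925 for GPX1, 0.885 for GPX4 and 1.04 for GPX8, and the median over the 65 listed genes with a mean TPM of at least 10 was 0.965, against 0.503 for GPX2.

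The genes whose log2(TPM + 1) ran most like that of GPX2 over the 6 libraries, of 9731 with a mean TPM of at least 10, were DLG3 (Pearson r = 0.999), BABAM2 (r = 0.997), FGA (r = 0.996), DAPK1 (r = 0.996) and the gene AC007192.2 (r = 0.995). These are descriptions over 6 points. Each of these genes, picked for likeness to GPX2, was like it lowest in replicate 3 of A549 MOCK, while the order of the other libraries differed between genes. FGA, the fibrinogen alpha chain, was at 34.8, 33.5 and 16.3 TPM in A549 MOCK and 45.9, 49.2 and 34.2 TPM in A549 Rec. DLG3, a membrane scaffold gene, was at 12.5, 12.2 and 9.02 TPM and 13.5, 13.5 and 11.9 TPM. Within the family the same measure was 0.895 for GPX4, 0.775 for GPX1 and 0.667 for GPX8. All these correlations are on the deposited scale, on which 49.1% of all genes tested were lowest in A549 MOCK replicate 3. They were not computed on rescaled values.

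GPX1 was the member whose reads were least certain. The deposited annotation calls it a polymorphic pseudogene, while GENCODE v44 calls it protein coding. A gene on the same strand, ENSG00000290318, shares 572 exon bases with GPX1 in GENCODE v44. It is absent from the deposited table, so it had no values here. GPX1P1 held 2 to 6 reads per library and GPX1P2 held 0, and adding both to the family moved the difference in the share of GPX2 from 9.26 to 9.25 percentage points.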

How the data were processed

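Libraries were made with a directional kit and, per the labels, processed with FastQC 0.11.7, Trimmomatic 0.38, HISAT2 2.1.0 and featureCounts 1.6.3. The strand setting and annotation release were not given in the sources used here. The authors deposited TPM scaled to 1000000 per library, mitochondrially encoded genes included. The labels list mouse builds, but 58207 of 58676 gene IDs are in human GENCODE v44 and 58192 lie over the same place on GRCh38.

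Reads were recovered from TPM by finding, for each gene, the whole length that made its values whole reads (tolerance 0.01). On simulated data 5737 of 5819 genes were recovered exactly. Recovered lengths equalled those of GENCODE v44 for 14535 of 29900 genes.

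limma 3.58.1 in R 4.3.3 (lmFit, eBayes with trend) was fitted to log2(TPM + 1) for the 17408 genes at a TPM of 1 or more in 3 or more libraries. A DEG had an adjusted p under 0.05 and a 2-fold change. Differences on this scale understate changes of low genes. On simulated data 170 of 200 genes changed 3-fold and 17 others were called. The simulated libraries had the same dispersion for all genes and no replicate 3 difference in mitochondrial share. This rate may therefore not hold for the real libraries. Members and lists were chosen with earlier results of these data known. Named genes were all members, the 3 highest by mean TPM per list, listed genes past a test, and the 5 most like GPX2. The values of 1 gene that this rule names are not reported here.

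Replicate numbers come from the sample descriptions. Deviations of same-numbered libraries correlated at 0.11, 0.16 and 0.34 over genes, and those of A549 MOCK replicate 1 with A549 Rec replicate 2 at 0.13, above that of A549 MOCK replicate 1 with A549 Rec replicate 1. All 3 were above 0.1, but so was this differently numbered combination, so the correlations do not establish pairs. The replicate numbers were nevertheless used as pairs, and a replicate block was an alternative. Another pseudocount, no filter, rescaling, quantile normalization, voom on recovered reads and leaving out each library were also tried. No protein sequence was used.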

Additional observations from a re-analysis of the deposited data

How the results depend on the processing

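GPX2 was chosen for its rise in these same libraries, so its sign in the runs below is a description only. The log2 difference of GPX2 was above 0 under every alternative run, from 0.27 to 0.96 with a library left out and from 0.67 to 0.73 otherwise. With the replicate block it was 0.72, and the count of DEGs stayed at 1. The count of DEGs was 6 without the filter, 6 without the trend in limma, and 3 with the replicate block and voom on recovered reads (chosen after seeing the data), and 1 to 2 with a library left out; no glutathione peroxidase was among them. The genes called at an unadjusted p under 0.05 numbered 715 without the filter, 914 with the replicate block and rescaling, 781 with the replicate block and voom, and 305 to 646 with a library left out, the highest without A549 MOCK replicate 3. Of the listed genes 1 passed the unadjusted p without the filter (GSTA1), with rescaling (GSTA1) and with the replicate block (GSTA2), 4 with the replicate block and rescaling together (PRDX4, GSTA2, SELENOT and TFRC; alternative chosen after seeing the data), and 0 to 1 with a library left out. With a library left out the log2 difference ran from -0.17 to 0.093 for GPX1 and from -0.080 to 0.22 for GPX4. It ran from -0.052 to 0.13 for GPX8, and the median over all genes tested from -0.064 to 0.070. The difference in the share of GPX8 without GPX2 ran from -0.42 to 0.49 percentage points. GSTA2 exceeded GPX2 without A549 MOCK replicate 2 (1.00 against 0.93), A549 MOCK replicate 3 (0.33 against 0.27, as did CHAC1 at 0.79) or A549 Rec replicate 3 (0.94 against 0.91), and with a pseudocount of 0.1, quantile normalization or voom. The cause was not tested. With 3 libraries per group, counting error was small for GPX1, GPX2 and GPX4, and the spread between libraries set the precision.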
